A study of Nothobranchius furzeri and Iconisemion striatum and Callopanchax occidentalis with 18 samples.

Results

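The miR-99, miR-100 and miR-125 families were described across 18 small RNA libraries from embryos of 8 killifish species. Every mature miRNA of the deposited count table named miR-99, miR-100 or miR-125 was taken, whatever its letter, copy number or arm, which gave 10 of 291 miRNAs. They are miR-99, the 3 miR-100 products miR-100-5p, miR-100-3p and miR-100-2-3p, and the 6 miR-125 products miR-125a, miR-125b-5p, miR-125b-1-3p, miR-125b-2-3p, miR-125b-3-3p and miR-125c-5p. The suffixes 5p and 3p name the 2 arms of the hairpin precursor from which a mature miRNA is cut.

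All libraries came from whole embryos that the labels place at the somite stage. Embryos labelled as in diapause, the reversible arrest of annual killifish, came from Nothobranchius furzeri (5 libraries), Callopanchax occidentalis (1) and Nematolebias papilliferus (1), all labelled annual. Embryos labelled as not in diapause came from N. furzeri (3 libraries) and from 5 species labelled non-annual, which were Aphyosemion striatum (4 libraries, with Iconisemion striatum as the organism name) and, with 1 library each, Epiplatys dageti monroviae, Rivulus cylindraceus, Austrofundulus leohoignei and Aplocheilus lineatus. The N. furzeri diapause libraries were of strain MZM0403 (replicate 1), MZM0410 (replicate 2), MZM0410 after 2 weeks of diapause (replicate 3), GRZ x MZZW after 1 month (replicate 4) and GRZ x MZZW after 2 months (replicate 5). No duration is stated for replicates 1 and 2, and strain MZM0410 gave all 3 of the N. furzeri libraries not in diapause. Library names in the deposited table place 8 libraries in lane 1, 9 in pool 3 and 1 in pool 2. Lane 1 held N. furzeri diapause 1 and 2, C. occidentalis, N. papilliferus, A. striatum 4, A. leohoignei, R. cylindraceus and E. dageti monroviae. Pool 2 held N. furzeri diapause 5, and pool 3 held the rest. No label says whether replicate libraries came from separate clutches. Where libraries were compared, the p-values measure the spread between these libraries, which may be technical. Among the N. furzeri diapause libraries this spread also holds differences of strain, run and duration. Where counts were summed by species, the p-values measure the spread between species.

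miR-99 and miR-100 are closely related in sequence to each other and to miR-10. In many animals miR-100, let-7 and miR-125 are encoded close together and can be cut from a shared transcript. miR-125 is the counterpart of lin-4, which together with let-7 times the larval stages of Caenorhabditis elegans. In human cells miR-99 and miR-100 repress mTOR, a kinase that drives growth, and in zebrafish and human cells miR-125b represses p53. No sequences of the members are printed, because none was found in the tables used here.

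Of the reads of 18 to 33 nt, 1.43% (E. dageti monroviae) to 55.7% (C. occidentalis) were counted on miRNAs in lane 1. In pool 3 the share was 11.7% (N. furzeri diapause 3) to 77.3% (N. furzeri diapause 4), and in pool 2 it was 13.1%. The part of this share in the levels was not tested. Counts on miRNAs totalled 371908 to 4177400 per library, and the 10 members together took 0.0135% to 0.359% of them. The miR-10 family took 5.98% to 92.6% and miR-430, the family of the early fish embryo, 0.840% to 65.5%, so a level given as RPM (counts scaled to a library total of 1000000 miRNA counts) depends on what these families left over. The neural miRNAs miR-9 and miR-124 summed to 6462 RPM in N. furzeri diapause 1 and 1020 RPM in A. striatum 4, against 47.0 to 836 RPM in the other 16 libraries. let-7 summed to 2849 RPM in N. furzeri diapause 1 and 2274 RPM in A. striatum 4, against 117 to 817 RPM elsewhere. These libraries had the highest values of both sums, and the comparisons they enter as separate libraries were refitted without each in turn. The comparison of runs holds both, and no fit of it left out both. Where counts were summed by species, neither was left out by itself. There N. furzeri diapause 1 was dropped together with replicate 3, and no fit removed A. striatum 4 from the sum of its species. The muscle miRNAs miR-1, miR-133, miR-206 and miR-499 summed to 359 RPM in N. furzeri diapause 1. The other N. furzeri diapause libraries had 84.8 to 132 RPM. The blood miRNAs miR-144 and miR-451 summed to 68.3 RPM in N. furzeri diapause 1, against 0 to 5.88 RPM in those. A. striatum 4 had 134 RPM for muscle and 33.3 RPM for blood, both inside the range of the other A. striatum libraries. In whole embryos, fewer cells of a type and less RNA per cell cannot be told apart.

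miR-100-5p carried most of the signal, with 73.4% of all counts of the 10 members, and ranked 45 among the 291 miRNAs by mean RPM. miR-125a followed with 13.7% (rank 74), miR-100-2-3p with 4.73%, miR-125b-5p with 4.57%, miR-125b-1-3p with 2.18% and miR-99 with 1.32%. The other 4 were at or near the limit of counting: miR-125b-2-3p had 32 counts in 9 libraries, miR-125b-3-3p 9 counts in 5 libraries, miR-100-3p 1 count in 1 library, and miR-125c-5p none in any of the 18. A count of 0 allows up to 3 counts, which is 0.718 to 8.07 RPM depending on the library. Since miR-99 and miR-100-5p, and likewise miR-125a and miR-125b-5p, have near-identical sequences, reads could have been shared between them, and the split within each pair is uncertain.

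miR-100-5p was counted in every library, at 90.1 to 2251 RPM with a median of 408 RPM, from 73 to 5743 counts. In N. furzeri in diapause, replicates 1 to 5 had 1918, 126, 2251, 167 and 170 RPM, against 259, 246 and 541 RPM in N. furzeri not in diapause. On RPM, replicates 1 and 3 stood far above the rest and the other 3 below all libraries not in diapause, so the groups overlapped. On CPM scaled by TMM, which sets library sizes by the bulk of the miRNAs, replicate 4 was not below them all. It had 363, against 259 and 251 in replicates 1 and 2 not in diapause. C. occidentalis had 590 RPM and N. papilliferus 502 RPM. Among the non-annual species, A. striatum had 198, 564, 90.1 and 742 RPM in its 4 libraries, E. dageti monroviae 471 RPM, R. cylindraceus 433 RPM, A. leohoignei 383 RPM and A. lineatus 103 RPM. In the order of group medians, C. occidentalis came first and A. lineatus last. All 7 groups between A. lineatus and C. occidentalis had medians inside the range of the 4 A. striatum libraries, so their order is not separated from the spread of replicates.

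**Figure D1:**
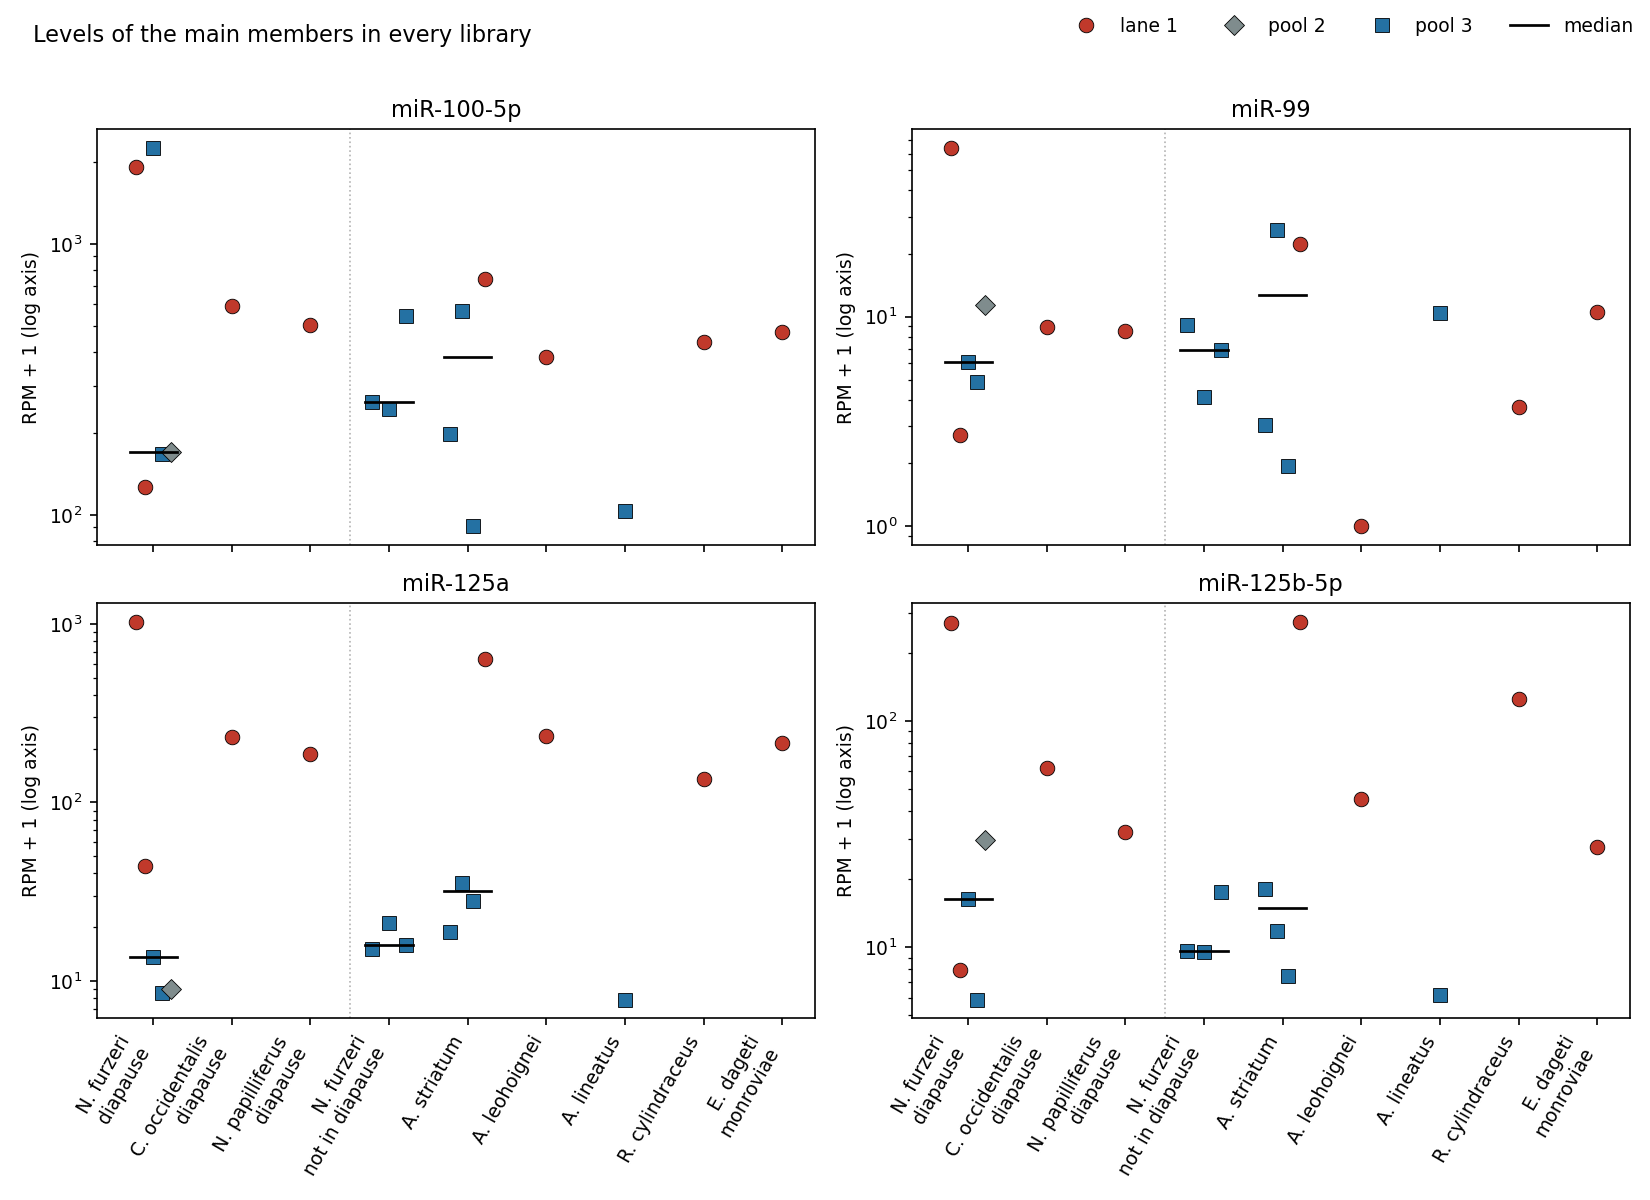
RPM + 1 of miR-100-5p, miR-99, miR-125a and miR-125b-5p on log axes, 1 point per library; groups in diapause stand left of the dotted line, colour and shape give the sequencing run, and the line is the median of groups with more than 1 library. The red points of miR-125a (lane 1, 43.2 to 1025 RPM) all lie above the blue and grey ones (6.85 to 34.5 RPM), while those of miR-100-5p are mixed with them.

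miR-99 was a small fraction of this family: of the summed counts of miR-99 and miR-100-5p, miR-100-5p made up 91.6% to 100% in every library. Its level was 0 to 62.5 RPM with a median of 6.72 RPM. The highest value was that of N. furzeri diapause 1, followed by A. striatum 2 with 24.9 RPM and A. striatum 4 with 21.3 RPM. It had 62.5, 1.73, 5.10, 3.90 and 10.4 RPM in N. furzeri in diapause, against 8.14, 3.11 and 5.89 RPM in N. furzeri not in diapause, so on RPM only replicates 1 and 5 exceeded the libraries not in diapause. On TMM-scaled CPM replicate 4 did so too, narrowly, at 8.45 against 8.11 in N. furzeri not in diapause 1. A. leohoignei was the single library with no count, which allows up to 2.75 RPM.

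miR-100-2-3p, the opposite arm of a miR-100 hairpin, did not follow miR-100-5p. In N. furzeri in diapause, replicates 1 to 5 had 171, 17.3, 6.27, 0.975 and 0 RPM, against 29.4, 43.6 and 93.5 RPM in N. furzeri not in diapause. All but 1 of the 5 diapause libraries lay below every library not in diapause, and replicate 1 lay above them all. Replicate 3, which had the highest miR-100-5p of all 18 libraries, had only 16 counts of this arm. A. striatum had 26.6, 79.0, 6.5 and 14.6 RPM, and the single-library species had 2.69 RPM (R. cylindraceus, 1 count) to 72.5 RPM (E. dageti monroviae).

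miR-125a separated the libraries by sequencing run. The 8 lane 1 libraries had 43.2 to 1025 RPM (median 223 RPM), the 9 pool 3 libraries 6.85 to 34.5 RPM (median 14.9 RPM), and the pool 2 library 8.0 RPM. Lane 1 thus did not overlap the other runs, whatever the species or the diapause label. Of 169 miRNAs averaging at least 10 RPM, 8 (4.73%) were likewise higher in every lane 1 library than in every other library, and none was lower. The other 7 were miR-9-7-3p, miR-19a-3p, miR-19b-3p, miR-19d-3p, miR-30c-5p, miR-200b-3p and miR-223, named here after their values were seen. On CPM scaled by TMM, a method that sets library sizes by the bulk of the miRNAs, no miRNA was higher in all of lane 1 without overlap, miR-125a included, and 2 of the 169 (1.18%) were lower.

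Within N. furzeri in diapause, miR-125a stood at 1025 and 43.2 RPM in the lane 1 libraries (replicates 1 and 2), against 12.5 and 7.55 RPM in pool 3 (replicates 3 and 4) and 8.0 RPM in pool 2 (replicate 5). Within A. striatum it stood at 636 RPM in the lane 1 library, against 17.7, 34.5 and 26.9 RPM in pool 3. In N. furzeri not in diapause, sequenced in pool 3, it had 14.1, 20.2 and 14.9 RPM. In lane 1, A. leohoignei had 235 RPM, C. occidentalis 231 RPM, E. dageti monroviae 215 RPM, N. papilliferus 186 RPM and R. cylindraceus 134 RPM, and A. lineatus, sequenced in pool 3, had 6.85 RPM. On RPM, every single-library species of lane 1 thus lay above A. lineatus of pool 3. Each of these species was sequenced in a single run, so species and run cannot be told apart for them. The ratio of miR-100-5p to miR-125a, which does not depend on library scaling, was 1.17 to 3.22 in lane 1, against 3.34 to 179 in pool 3 and 21.3 in pool 2. The closest libraries were R. cylindraceus (3.22, lane 1) and A. striatum 3 (3.34, pool 3). How many other ratios between miRNAs split by run was not counted, so this split cannot be called particular to the pair.

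**Figure D2:**
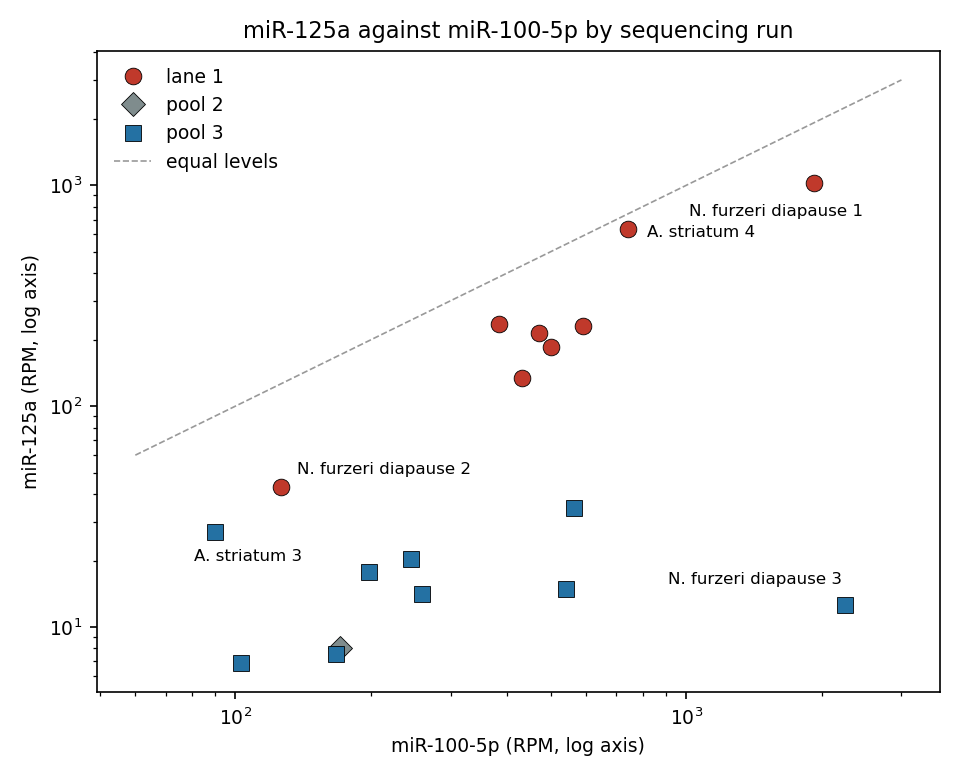
miR-125a against miR-100-5p in RPM on log axes, 1 point per library, with colour and shape for the sequencing run and a dashed line at equal levels. The lane 1 libraries run parallel to the line at ratios of 1.17 to 3.22, and the pool 3 libraries lie lower, down to N. furzeri diapause 3 with a ratio of 179.

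miR-125b-5p was lower than miR-125a in most libraries and split less cleanly. It had 6.91 to 273 RPM in lane 1 (median 52.3 RPM), against 4.87 to 17.0 RPM in pool 3 (median 8.62 RPM) and 28.8 RPM in pool 2. The overlap with pool 3 came from N. furzeri diapause 2, the lane 1 library with 6.91 RPM from 4 counts. E. dageti monroviae, also of lane 1, had 26.7 RPM and lay below the pool 2 library too. In N. furzeri in diapause it had 270, 6.91, 15.3, 4.87 and 28.8 RPM, against 8.62, 8.55 and 16.5 RPM in N. furzeri not in diapause. A. striatum had 17.0, 10.8, 6.5 and 273 RPM, the last in lane 1. Of the summed counts of miR-125a and miR-125b-5p, miR-125a made up 52.1% to 89.0% in lane 1, against 45.1% to 80.6% in pool 3. In N. furzeri diapause 5, in pool 2, it made up 21.7% (95% Wilson interval 12.3% to 35.6%), the lowest of all 18. Such intervals cover counting error only.

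Summed over all 18 libraries, the opposite arms of miR-125b were scarcer than miR-125b-5p, with 485 counts of miR-125b-1-3p against 1016. In N. furzeri not in diapause miR-125b-1-3p was the more frequent in every library (41 against 36, 16 against 11 and 58 against 42 counts). The same held in N. furzeri diapause 2, A. striatum 2, A. lineatus and E. dageti monroviae. miR-125b-1-3p had 134, 12.1, 2.35, 0.487 and 5.60 RPM in N. furzeri in diapause, against 9.81, 12.4 and 22.8 RPM in N. furzeri not in diapause. Replicates 3, 4 and 5 lay below all 3 libraries not in diapause, and replicate 1 above them. A. striatum had 8.18, 22.9, 3.71 and 27.9 RPM, and the highest single-library species was E. dageti monroviae with 66.7 RPM. miR-125b-2-3p reached 8.62 RPM in N. furzeri diapause 1, from 12 counts, and miR-125b-3-3p 5.72 RPM in E. dageti monroviae, from 3 counts.

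In N. furzeri in diapause against not in diapause, none of the 6 members that passed the filter on low counts was called by edgeR's quasi-likelihood test at an adjusted p under 0.05. None of all 161 miRNAs tested was called either (0%), and 24 (14.9%) had an unadjusted p under 0.05, none of them a member. DESeq2's Wald test called 4 miRNAs, none a member. The groups did not overlap on TMM-scaled CPM for 14 of the 161 (8.70%) and overlapped for all 6 members. The log2 fold changes (diapause over not in diapause) were 2.97 for miR-125a (SE 1.47, adjusted p = 0.369), 1.97 for miR-125b-5p (SE 1.02, adjusted p = 0.371), 1.31 for miR-100-5p (SE 0.96, adjusted p = 0.561) and 1.13 for miR-99 (SE 0.83, adjusted p = 0.561). They were 0.38 for miR-125b-1-3p (SE 1.13, adjusted p = 0.841) and -1.18 for miR-100-2-3p (SE 1.22, adjusted p = 0.682). The 6 members had a median of 1.22, beside 0.14 over all miRNAs tested.

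These estimates changed when single libraries were left out and when the fit was restricted to pool 3 or run was modelled. The restriction to pool 3 also leaves out diapause replicate 1, and all libraries not in diapause are in pool 3. The parts of run and of that library thus cannot be told apart here. For miR-125a the log2 fold change was 0.12 without diapause replicate 1, 0.0016 among pool 3 libraries only and -0.13 with run as a covariate. For miR-125b-5p it was 0.64 without diapause replicate 1, 0.40 in pool 3 only and 0.0030 with strain as a covariate. miR-99 was at 0.32 without diapause replicate 1 and 0.36 in pool 3 only. For miR-100-5p it was 0.36 without diapause replicate 3, -0.57 without diapause replicates 1 and 3 and 2.10 in pool 3 only, where replicate 3 is 1 of 2 diapause libraries. Leaving out a single diapause library thus lowered each of these 4, replicate 3 for miR-100-5p and replicate 1 for the others. miR-100-2-3p kept its direction in all alternatives tried, at -3.47 in pool 3 only (adjusted p = 0.0858) and -3.91 among the 3 diapause libraries with a stated duration (adjusted p = 0.0611). The neural sum of 6462 RPM stands in replicate 1, beside 47.0 to 245 RPM in the other 4 diapause libraries and 118 to 129 RPM in those not in diapause, all 8 neural miRNAs of the list being detected somewhere in the series, and its part in the values of replicate 1 was not tested.

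In N. furzeri against A. striatum, both not in diapause, 34 of 157 miRNAs tested were called (21.7%), 12 higher (7.64%) and 22 lower (14.0%) in N. furzeri, and none of the 6 members tested was among them. An unadjusted p under 0.05 was reached by 57 (36.3%), with miR-125a as the single member. It came nearest to the threshold, with 14.1, 20.2 and 14.9 RPM in N. furzeri, against 17.7, 34.5, 26.9 and 636 RPM in A. striatum, and differed by -2.61 on the log2 scale (SE 0.96, adjusted p = 0.0783). On TMM-scaled CPM all 3 N. furzeri libraries lay below the A. striatum ones, a gap found in either direction for 59 of the 157 miRNAs (37.6%), and on RPM the groups overlapped. Within pool 3 alone, without A. striatum 4, the difference was -0.84 (adjusted p = 0.186). Without A. striatum 2 it was called, at -2.99 (adjusted p = 0.0377). miR-125b-5p had -1.96 (SE 0.96, adjusted p = 0.161) and -0.19 within pool 3. miR-100-5p did not stand apart, at 0.31 (SE 0.45, adjusted p = 0.662), with an approximate 95% interval whose lower end was -0.58. miR-100-2-3p had 1.09 (SE 0.67, adjusted p = 0.239), miR-125b-1-3p 0.39 (SE 0.53, adjusted p = 0.644) and miR-99 -0.45 (SE 0.75, adjusted p = 0.684).

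Annual species in diapause were set against non-annual ones on the summed counts of each species, 3 against 5. None of 173 miRNAs was called (0%), and 21 (12.1%) had an unadjusted p under 0.05, among them miR-100-5p and miR-125a of the 5 members tested. DESeq2's Wald test called 8, none a member. miR-100-5p had 950 RPM in N. furzeri, 590 RPM in C. occidentalis and 502 RPM in N. papilliferus, against 471 RPM in E. dageti monroviae, 433 RPM in R. cylindraceus, 404 RPM in A. striatum, 383 RPM in A. leohoignei and 103 RPM in A. lineatus. The 3 annual species lay above all 5 others. On TMM-scaled CPM too there was no overlap, as for 11 of the 173 miRNAs (6.36%). The log2 fold change was 1.95 (SE 0.58, adjusted p = 0.292). It was 1.42 among lane 1 libraries only (adjusted p = 0.206) and 0.93 when libraries were scaled by their totals alone. Without diapause replicates 1 and 3, the N. furzeri sum was 164 RPM, below 4 of the 5 non-annual species, and the log2 fold change was 1.42 (adjusted p = 0.445). A. leohoignei is labelled non-annual although its genus is known for annual life; counted as annual, it gave 1.36 (adjusted p = 0.244), and left out, 1.79 (adjusted p = 0.0908).

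miR-125a had 154 RPM in N. furzeri, 231 RPM in C. occidentalis and 186 RPM in N. papilliferus, against 235 RPM in A. leohoignei, 215 RPM in E. dageti monroviae, 134 RPM in R. cylindraceus, 108 RPM in A. striatum and 6.85 RPM in A. lineatus. The groups overlapped on RPM but not on TMM-scaled CPM, and the log2 difference was 1.84 (SE 0.72, adjusted p = 0.369). Among lane 1 libraries it was 0.94 (adjusted p = 0.520), with library totals 0.44, and without diapause replicates 1 and 3 in the N. furzeri sum 1.5 (adjusted p = 0.487). miR-125b-5p had 1.07 (SE 0.87, adjusted p = 0.544), miR-100-2-3p 0.31 (SE 0.94, adjusted p = 0.888) and miR-125b-1-3p 0.19 (SE 1.02, adjusted p = 0.938), and miR-99 did not pass the filter. The median was 1.07 over the 5 members and -0.06 over all miRNAs tested. miR-430 took 0.840% to 11.2% of counts in the annual libraries in diapause, against 1.91% to 65.5% in the non-annual ones, all 8 of its members being detected, and its part in these differences was not tested. Life style and diapause label split the species in the same way and cannot be told apart here.

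**Figure D3:**
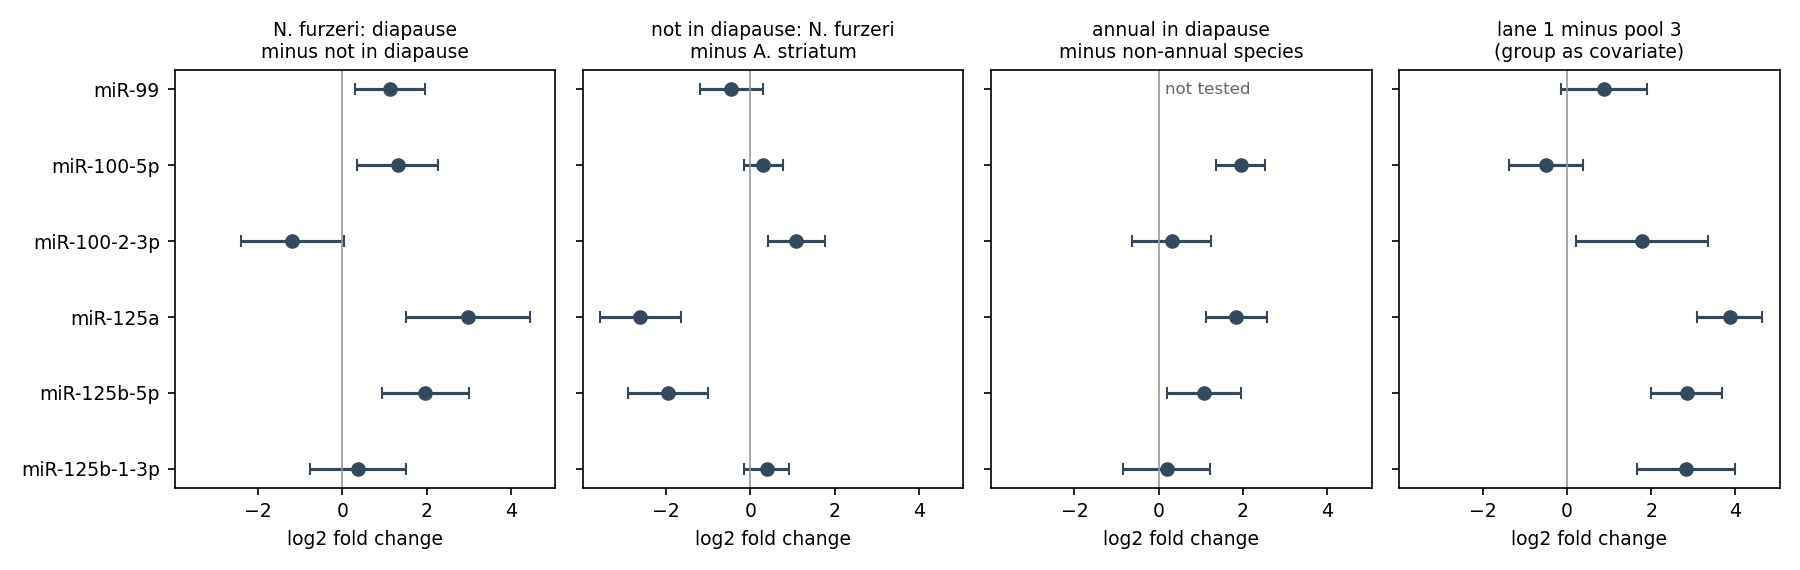
Log2 fold changes of the members tested in each of the 4 comparisons, with bars of 1 SE from edgeR; positive values are higher in the group named first above each panel. miR-125a and miR-125b-5p lie at 3.87 and 2.84 between the runs, and no member was called in any panel.

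The run itself was compared within N. furzeri in diapause and A. striatum, the groups that span both lane 1 (3 libraries) and pool 3 (5 libraries), with the group as a covariate. miR-125a had 1025, 43.2 and 636 RPM in lane 1, against 12.5, 7.55, 17.7, 34.5 and 26.9 RPM in pool 3, without overlap on RPM. On TMM-scaled CPM, the scale of the fit, the runs overlapped. The share of all miRNAs without overlap between these libraries was not counted. The log2 fold change of miR-125a was 3.87 (SE 0.77), with the lower end of an approximate 95% interval at 2.36. It missed the threshold (adjusted p = 0.0541). No miRNA of 184 tested was called (0%), and 37 (20.1%) had an unadjusted p under 0.05, among them miR-125a, miR-125b-5p and miR-125b-1-3p. miR-125b-5p had 2.84 (SE 0.83, adjusted p = 0.111), miR-125b-1-3p 2.83 (SE 1.17, adjusted p = 0.195), miR-100-2-3p 1.78 (SE 1.58, adjusted p = 0.521), miR-99 0.89 (SE 1.02, adjusted p = 0.643) and miR-100-5p -0.49 (SE 0.88, adjusted p = 0.785). The difference between miR-125a and miR-100-5p was not tested.

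miR-125a passed the threshold in 7 of 15 alternatives and was positive in all of them, at 2.63 to 5.27. Over all miRNAs these 15 alternatives called 0 to 36. The most were called with library totals, 36 of 184 tested, all higher in lane 1, and 0 to 8 were called with a library left out. Calls of members are to be read beside these numbers, which are given by setting further below. It was called with DESeq2's size factors (3.73, adjusted p = 0.0371), with TMM computed without the 10 most abundant miRNAs (3.70, adjusted p = 0.0199), with library totals (5.27, adjusted p = 0.0021), without N. furzeri diapause 2 (4.35, adjusted p = 0.000334), and also without a filter, among miRNAs of at least 50 CPM and by DESeq2's Wald test. miR-125b-5p was called in 4 of its 15 alternatives and miR-125b-1-3p in 2 of its 14, each positive in all of them. With a library left out, miR-125b-5p ranged from 2.21 (without diapause replicate 1, adjusted p = 0.252) to 3.43 (without diapause replicate 2, adjusted p = 0.00166), and was at 2.30 without A. striatum 4 (adjusted p = 0.517). miR-125b-1-3p was at 1.1 without diapause replicate 1 (adjusted p = 0.411) and at 4.26 without A. striatum 4 (adjusted p = 0.314). Without diapause replicate 1, miR-99 and miR-100-2-3p turned negative, at -0.35 and -0.38. Scaling by library totals moved the median of all miRNAs to 1.32. Without diapause replicate 1 the difference in miR-125a was 2.67 (adjusted p = 0.0747), and without replicates 1 and 3 it was 2.63 (adjusted p = 0.132). Without A. striatum 4, when only N. furzeri spans the runs, it was 4.08 (adjusted p = 0.314). In N. furzeri, strain MZM0403 was sequenced only in lane 1, no lane 1 library has a stated duration of diapause, and A. striatum had 1 lane 1 library, so run cannot be told apart from strain and duration in the first species. The libraries with the highest neural and let-7 sums, N. furzeri diapause 1 and A. striatum 4, are both in lane 1. No fit left out both, and their part in the difference between runs was not tested.

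let-7, which shares transcripts with miR-100 and miR-125 in many animals, was read in the same fits. In N. furzeri against A. striatum 6 of 7 let-7 miRNAs tested had a negative log2 fold change, and 3 of the 7 were called, all lower in N. furzeri, beside 14.0% called lower over all miRNAs. These were let-7g at -2.15 (adjusted p = 0.0120), let-7i at -3.57 (adjusted p = 0.00975) and let-7j at -2.73 (adjusted p = 0.0219), all from edgeR and the last 2 named after their values were seen. let-7i had 1.68, 9.33 and 5.50 RPM in N. furzeri, against 54.5, 33.7, 37.1 and 207.6 RPM in A. striatum. Without A. striatum 4, the highest of these, the 3 were still called, let-7g at -2.35 (adjusted p = 0.00728), let-7i at -3.27 (adjusted p = 0.0113) and let-7j at -2.54 (adjusted p = 0.0351). Without N. furzeri not in diapause 1 or 3 no let-7 miRNA was called, with adjusted p-values of 0.0548 for let-7i and 0.0558 for let-7g in the first case and 0.0726 for both in the other. Without N. furzeri not in diapause 2, A. striatum 1 or A. striatum 3, let-7j was not called. let-7a, the most abundant, was at -0.91 (adjusted p = 0.199), and miR-100-5p was at 0.31 in that comparison. No let-7 miRNA was called in the other 3 comparisons. Between the runs 8 of 9 were positive, with 0.86 for let-7a and 0.88 for let-7g. The related miR-10 family had no call among 6 tested in any comparison. Its most abundant members, miR-10b-5p and miR-10d-5p, were at -2.0 and -2.17 between lane 1 and pool 3 (adjusted p = 0.0745 for each), where miR-125a was at 3.87. These come from the TMM-scaled fit with the group as a covariate. Mean RPM differed less, at 454612 in lane 1 and 501899 in pool 3 for miR-10b-5p. For miR-10d-5p it was 75642 and 96431. The part of scaling in these differences was not tested.

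The arms of the miR-100 and miR-125b hairpins were compared within each library, where library scaling has no part. The 5p names carry no copy number, while the 3p names do (miR-100-2-3p and miR-125b-1-3p), so the 5p counts can include other copies. A ratio could therefore also move with the copy that is expressed, which was not tested. miR-100-5p had 359 counts per count of miR-100-2-3p after 2 weeks of diapause and 172 after 1 month. After 2 months it had 213 counts with none of the other arm. That is a ratio of at least 71 if the 0 stands for up to 3 counts. The lower end of the 95% Wilson interval was 55.4. In the diapause libraries with no stated duration the ratio was 11.2 and 7.30, against 8.81, 5.64 and 5.79 in N. furzeri not in diapause. The 3 libraries with a stated duration thus lay above the other 5 N. furzeri libraries, which overlapped among themselves. For miR-125b-5p per miR-125b-1-3p the ratio was 6.5 after 2 weeks, with 39 counts against 6, and 5.14 after 2 months, and after 1 month there were 20 counts against 2. It was 2.01 and 0.571 with no stated duration, against 0.878, 0.688 and 0.724 in N. furzeri not in diapause. The same 3 libraries were again the highest of the 8.

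**Figure D4:**
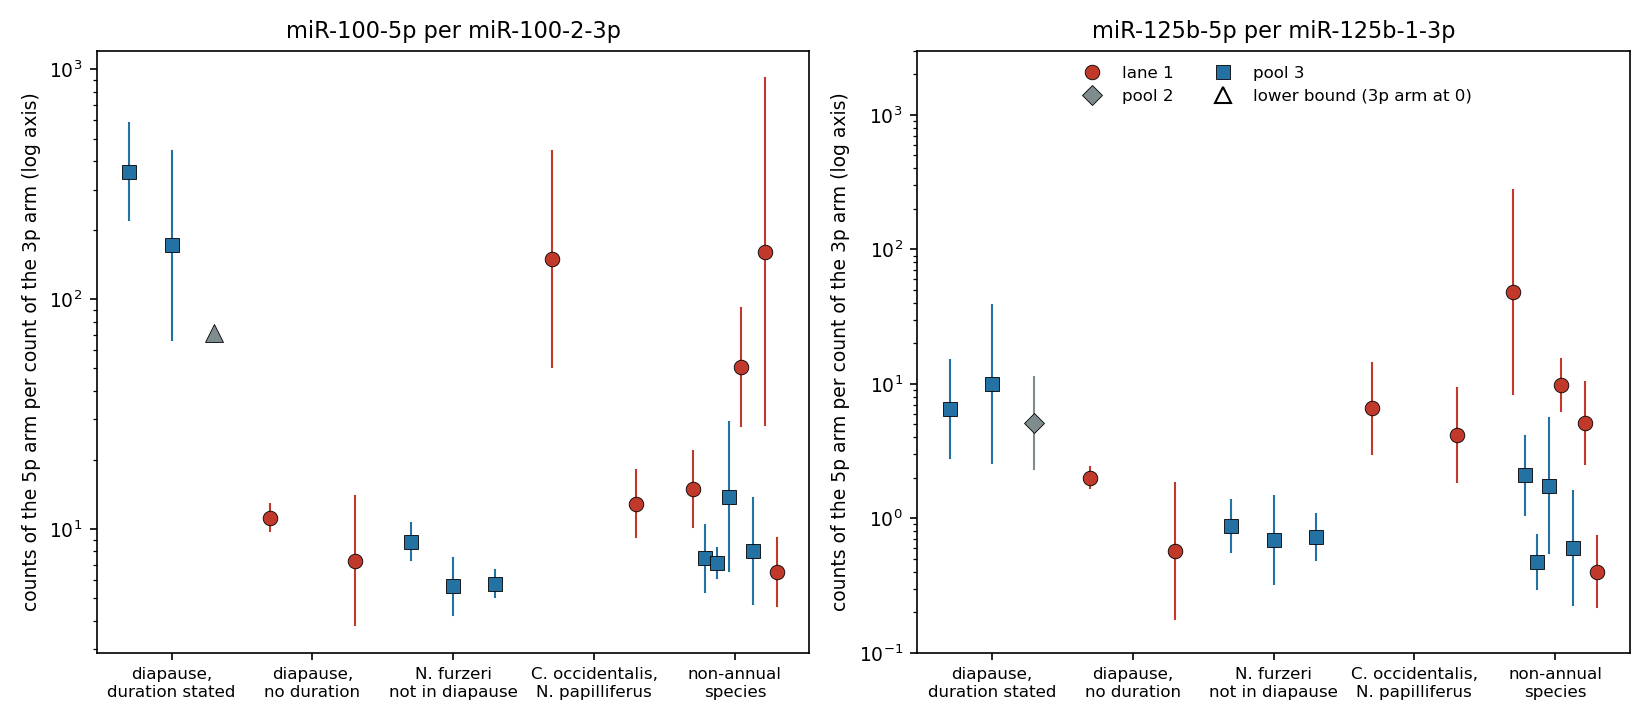
Counts of the 5p arm per count of the 3p arm for miR-100 (left) and miR-125b (right) on log axes, 1 point per library, with 95% Wilson intervals of the counts, colour and shape for the run and a triangle for a lower bound where the 3p arm had no count. For miR-100, the 3 N. furzeri libraries with a stated diapause duration lie at 172, 359 and a bound of 71, set at 3 counts of the 3p arm. The other 5 N. furzeri libraries lie at 5.64 to 11.2.

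This split was noticed after the values of these ratios were seen and was not tested. The rank given next uses the same split, so it is partly set by that choice and is no separate support. Among 27 hairpins with at least 200 counts on the minor arm, the shift of the mean log2 ratio between libraries with a stated duration and those not in diapause was 5.43 for miR-100 and 3.03 for miR-125b (0.5 counts added to each arm), the 2 largest. The other 25 were pairs of 5p and 3p arms of the same name, unlike these. They ranged from -2.62 to 2.93 with a median of 0.48, and 8 of them also did not overlap in that direction. For the libraries with no stated duration the shifts were 0.43 and 0.52, beside a median of 0.13. Replicates 2 and 3 and the libraries not in diapause share the strain MZM0410, and replicates 3 and 4 and the libraries not in diapause share pool 3. Replicates 4 and 5 are of strain GRZ x MZZW, which no library not in diapause has. Replicates 1 and 2, with no stated duration, are the diapause libraries of lane 1. Stated duration and run thus cannot be told apart among the diapause libraries, and the part of run and strain was not tested.

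High ratios were also found in other species. miR-100-5p had 149 counts per count of miR-100-2-3p in C. occidentalis and 161 in R. cylindraceus, from 3 counts and 1 count of the minor arm, and 50.7 in A. striatum 4. It had 12.9 in N. papilliferus, 14.9 in A. leohoignei, 7.46, 7.14 and 13.9 in the other A. striatum libraries, 8.0 in A. lineatus and 6.5 in E. dageti monroviae. miR-125b-5p had 9.76 counts per count of miR-125b-1-3p in A. striatum 4, against 0.473 to 2.08 in the A. striatum libraries of pool 3. The highest ratio of all 18 libraries was 48 in A. leohoignei, from 48 counts against 1, and C. occidentalis had 6.57, R. cylindraceus 5.11 and N. papilliferus 4.14. These libraries and A. striatum 4, all in lane 1, thus reach or come near the 5.14 to 10 of the N. furzeri libraries with a stated duration. Of their species, A. leohoignei, R. cylindraceus and A. striatum are labelled non-annual. The ratio was 0.400 in E. dageti monroviae (95% Wilson interval 0.217 to 0.736), where the 3p arm was the more frequent one. In A. lineatus, with 6 counts against 10, it was 0.600, and the interval of 0.227 to 1.59 includes equal arms.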

How the data were processed

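Per the labels' protocols, small RNA libraries were prepared from total RNA of whole embryos with Illumina's TruSeq chemistry. The file headers give a length filter of 18 to 33 nt before alignment. The submitters' processing notes name Bowtie (1.0.0 and 1.1.2), CASAVA 1.8.2 and bcl2fastq 1.8.3. Which miRNA reference was used, how many mismatches it allowed and what became of multiply matching reads is not given in the sources used here. All 8 species were counted on 1 list, so a species whose miRNA differs from it can lose counts. The values deposited by the authors are raw counts for each mature miRNA and library. A mature miRNA is read whole, so counts were not divided by length. The total line and 2 columns matching no sample were left out. RPM is the count scaled to a library total of 1000000 miRNA counts.

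In R 4.3.3, edgeR 4.0.16 (filterByExpr, TMM, quasi-likelihood test) was fitted over all miRNAs, p-values being adjusted by Benjamini-Hochberg and called under 0.05. The SE was taken from the fold change and the F statistic. A script using this test was tested on simulated data that gave every miRNA the same dispersion and changed only the more abundant ones. It does not show how the test does on members with a wider spread or lower counts. The alternatives were other scalings (DESeq2's size factors, library totals, TMM without the 10 most abundant), no filter or a minimum of 50 CPM, DESeq2 1.42.0 with its Wald test, leaving out single libraries or species, restricting or modelling strain and run, another treatment of A. leohoignei or N. furzeri among the species, and limma 3.58.1 on species means; leaving out diapause replicates 1 and 3, stated durations only and lane 1 only were added after the data were examined. All members were named, with the 2 most abundant let-7 and miR-10 miRNAs and the 5 miRNAs most like the main member of each family. Replicate numbers follow sample order and pair nothing. The members and lists were chosen with earlier results of these data known.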

Additional observations from a re-analysis of the deposited data

Results flagged for a closer look

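In groups of 4 or 5 libraries, 11 of 17 pairs of a member and a group had 1 library far from the rest by Dixon's criterion. In 3 of the 11 a single library had 1 or 2 counts and all others 0, so the criterion was met by construction. Of the other 14 pairs 8 met it. Chance gives about 1 of 20 groups if values are normally distributed, and the rate for RPM, which is not, was not worked out. All 11 were high values in 2 libraries, both of lane 1, so they are not 11 separate observations.

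N. furzeri diapause 1 (strain MZM0403) stood apart for 8 members. It had 1025 RPM of miR-125a (next highest diapause library 43.2 RPM), 270 RPM of miR-125b-5p (28.8 RPM), 171 RPM of miR-100-2-3p (17.3 RPM), 134 RPM of miR-125b-1-3p (12.1 RPM) and 62.5 RPM of miR-99 (10.4 RPM). The remaining values come from few counts: 8.62 RPM of miR-125b-2-3p (12 counts), 1.44 RPM of miR-125b-3-3p (2 counts) and 0.718 RPM of miR-100-3p (1 count). miR-100-5p was not among them, since N. furzeri diapause 3 was higher still.

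A. striatum 4 stood apart for miR-125a with 636 RPM (next highest A. striatum library 34.5 RPM), for miR-125b-5p with 273 RPM (17.0 RPM) and for miR-125b-3-3p with 1.33 RPM (1 count). Both libraries also had the 2 highest let-7 sums and the 2 highest sums of neural miRNAs; the part of tissue composition was not tested.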

How the results depend on the processing

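Over the 23 tests of members, 328 of 379 alternative values kept their direction and side of the threshold, 14 passed it that had not, and 37 had the other sign. None of the 23 had been called. These totals count some fits under 2 names. Between N. furzeri and A. striatum, pool 3 only is the same fit as leaving out A. striatum 4. For life style, A. leohoignei left out is also a fit with a species left out. All numbers of miRNAs called moved under some alternative. With DESeq2's Wald test they were 4 for diapause, 8 for life style and 24 between runs. Between runs they were 2 with DESeq2's size factors, 5 without the 10 most abundant miRNAs in TMM, 3 at 50 CPM or more, 12 without a filter and 36 (all higher) with library totals, and 0 to 8 with a library left out. Between N. furzeri and A. striatum 19 were called with library totals (4 higher and 15 lower), 17 at 50 CPM or more and 7 to 44 with a library left out, the lowest without N. furzeri not in diapause 1 (9 without replicate 3, 12 without replicate 2, 18 without A. striatum 1). For life style 2 were called without A. leohoignei, and 0 to 2 with a species left out.

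Signs turned as follows, on the log2 scale. For diapause, miR-99 was at -0.61 in MZM0410 only and -0.63 with strain as a covariate; miR-100-5p at -0.57 without diapause replicates 1 and 3; miR-125a at -0.13 with run as a covariate and -0.20 for stated durations. miR-125b-1-3p was at -2.16 for stated durations, -2.87 in pool 3, -3.0 with run as a covariate, -1.59 in MZM0410 only, -1.60 with strain as a covariate, -1.47 without replicates 1 and 3, and -1.77 to 0.65 with a library left out. Between N. furzeri and A. striatum, library totals gave -0.19 for miR-100-5p and -0.054 for miR-125b-1-3p, and leaving out a library gave -0.013 to 0.45 for miR-100-5p. For life style, miR-100-2-3p was at -0.14 with A. leohoignei counted as annual, -0.36 without N. furzeri diapause replicates 1 and 3, -0.43 with library totals, -0.054 with limma, and -0.054 (without N. papilliferus) to 0.80 with a species left out (-0.014 without R. cylindraceus). miR-125b-1-3p was at -0.59 with A. leohoignei counted as annual, -0.18 without it, -0.20 with its libraries not in diapause used for N. furzeri, -0.65 without the 2 replicates, -0.83 with library totals, -0.017 with limma, and -0.39 to 0.52 with a species left out; miR-125b-5p was at -0.063 with library totals. Between runs, miR-100-5p was at 0.51 with library totals and -1.46 to 0.48 with a library left out (0.12 without N. furzeri diapause 2); without the 2 replicates miR-99 was at -0.46 and miR-100-2-3p at -0.49, and with a library left out -0.35 to 1.60 and -0.38 to 3.36. The cause of these changes was not tested. Leaving out the 2 replicates, stated durations only, lane 1 only and the let-7 values with a library left out were added after seeing the data. Library totals moved the median of all miRNAs to -1.19 for life style, 1.32 between runs and -0.33 between N. furzeri and A. striatum. Members at a few counts per library are limited by depth. No paired analysis was possible because replicate numbers were given in sample order.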

Other observations

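The miRNAs whose levels ran most like the main member of each family were ranked by Spearman's rho over all 18 libraries (TMM-scaled log2 values, 100 miRNAs averaging at least 50 CPM), as a description in libraries that share runs and species. miR-99 ran most like miR-183-5p (0.80) and miR-182-5p (0.79), miRNAs of sensory organs, then miR-181a-5p (0.62), miR-184 (0.57) and miR-181b-5p (0.57). Over the 8 N. furzeri libraries alone these had 0.95, 0.93, 0.90, 0.19 and 0.71, in the same order. For miR-100-5p the highest was miR-192 at 0.53, then miR-181a-5p (0.52), miR-183-5p (0.50), miR-182-5p (0.49) and let-7a (0.48). In the N. furzeri libraries alone these had 0.07, 0.38, 0.38, 0.33 and 0.79.

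miR-125a ran most like miR-9-7-3p (0.82), an arm of a neural miRNA, then miR-19d-3p (0.70), miR-429a (0.66), miR-19a-3p (0.63) and miR-19c-3p (0.62). Over the 8 N. furzeri libraries alone these were 0.19 to 0.50. Of the 5, 3 (miR-9-7-3p, miR-19a-3p and miR-19d-3p) are among the miRNAs that were higher in every lane 1 library on RPM. Between members, miR-100-5p had 0.57 with miR-99, 0.51 with miR-125b-5p and 0.18 with miR-125a, and miR-125a had 0.47 with miR-125b-5p.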
